A study of Mus musculus with 16 samples.

Results

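The unfolded protein response is described here by 10 genes, of the 45513 in the count tables: the sensors Ern1, Ern2, Atf6, Atf6b and Eif2ak3 and the effectors Xbp1, Atf4, Ddit3, Ppp1r15a and Trib3. They were listed by name for their roles in this pathway, with earlier results of these data known. Their levels were compared between EpCAM+ tdTom+ and EpCAM+ tdTom- cells of the mouse colon, in 16 RNA sequencing libraries of 8 mice, with both populations taken from each mouse. All mice carried Atoh1(WT)CreERT2, homozygous per the study's methods, and the Rosa26tdTom reporter on a C57BL/6 background, and were males and females of 8 to 16 weeks. The Cre recombinase is made from the Atoh1 locus, so tdTom marks cells in which Atoh1 was expressed around the time of tamoxifen. Descendants of such cells carry the label too, as in the study's lineage tracing. Per the labels, every mouse received tamoxifen at 1 mg per day over 3 days, and the libraries hold no untreated mice. The study states the same schedule for the mice behind this comparison, while its sequencing methods give a single larger dose and collection on the next day.

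The endoplasmic reticulum (ER) folds secreted and membrane proteins, and unfolded proteins in its lumen are sensed by membrane proteins of 3 kinds. IRE1, encoded by Ern1 in most tissues and by its paralog Ern2 mainly in mucus-producing epithelia, removes an intron from Xbp1 mRNA, which then encodes an active transcription factor. ATF6 is released from the membrane by proteolysis in the Golgi apparatus and becomes a transcription factor itself, and PERK, encoded by Eif2ak3, phosphorylates eIF2alpha, which slows translation in general and favours that of Atf4. Goblet cells, the main secretory cells of the colon, make large amounts of the mucin MUC2 and depend on this machinery. Read counts per gene measure mRNA only: they tell neither the cleavage of ATF6, nor the phosphorylation of IRE1 or PERK, nor the splicing of Xbp1 from its unspliced form.

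Total counts ran from 16482530 to 24218367 in tdTom+ libraries and from 18318172 to 45791503 in tdTom- libraries, where the library of mouse 4 was the largest and the other 7 held at most 20668605. A count of 3 was taken as the lowest level that can be read, for counting error only. Relative to the total counts, without normalization, it stood for 0.124 to 0.182 CPM in tdTom+ and 0.0655 to 0.164 CPM in tdTom- libraries. Levels given below in CPM are counts relative to the normalized library total instead. The sort was checked on Atoh1, with 132 ± 19.3 CPM (tdTom+) against 5.70 ± 1.67 CPM (tdTom-; mean ± SD, n = 8 each), and on Muc2, with 13676 ± 1956 against 559 ± 219 CPM. All 10 goblet cell markers were higher in tdTom+ cells (summed level 51590 to 107400 CPM against 2277 to 8843 CPM), and 9 of 10 absorptive markers (2105 to 2425 against 7333 to 13800 CPM), 9 of 10 enteroendocrine (324.2 to 820.9 against 1425 to 4163 CPM), 6 of 9 tuft (58.6 to 122 against 113 to 186 CPM) and 6 of 10 proliferation genes (629 to 1017 against 771 to 1374 CPM) were lower. Immune and stromal markers were low in both populations, with sums of 7.05 to 13.5 and 16.03 to 21.9 CPM in tdTom+ and 11.6 to 38.4 and 24.2 to 36.4 CPM in tdTom- libraries, and Cd4 was at 0 in every library. The share of counts from mitochondrial genes was 2.227 to 6.922% in tdTom+ and 3.742 to 9.969% in tdTom- libraries, and it was lowest in mouse 4 in both.

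Of the 10 genes, 9 had enough counts to be tested among 15841 genes, and 7 were higher in tdTom+ cells at an adjusted p under 0.01 (quasi-likelihood test of edgeR, adjusted after Benjamini and Hochberg over all genes tested). The 7 were Ern2, Eif2ak3, Xbp1, Ern1, Atf6, Atf4 and Atf6b. Of all genes tested, 25.5% were higher and 25.5% lower at this threshold. The median log2 fold change was 0.87 over the 9 members and 0.0039 over all genes. In each of the 7, the lowest tdTom+ library lay above the highest tdTom- library, which was so for 15.2% of all genes. It follows from this that all 7 were higher in tdTom+ cells of 8 of 8 mice. None of the 9 was lower at this threshold, with 1 at an unadjusted p under 0.05 and 0 by DESeq2. With the mouse as a block in the edgeR model, Ddit3 and Ppp1r15a were lower, as were 28.9% of all genes. Log2 fold changes are given ± standard error, and mean levels in CPM ± SD over 8 mice. In sorted populations, a smaller share of cells expressing a gene and less of its RNA per cell cannot be told apart.

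**Figure D1:**
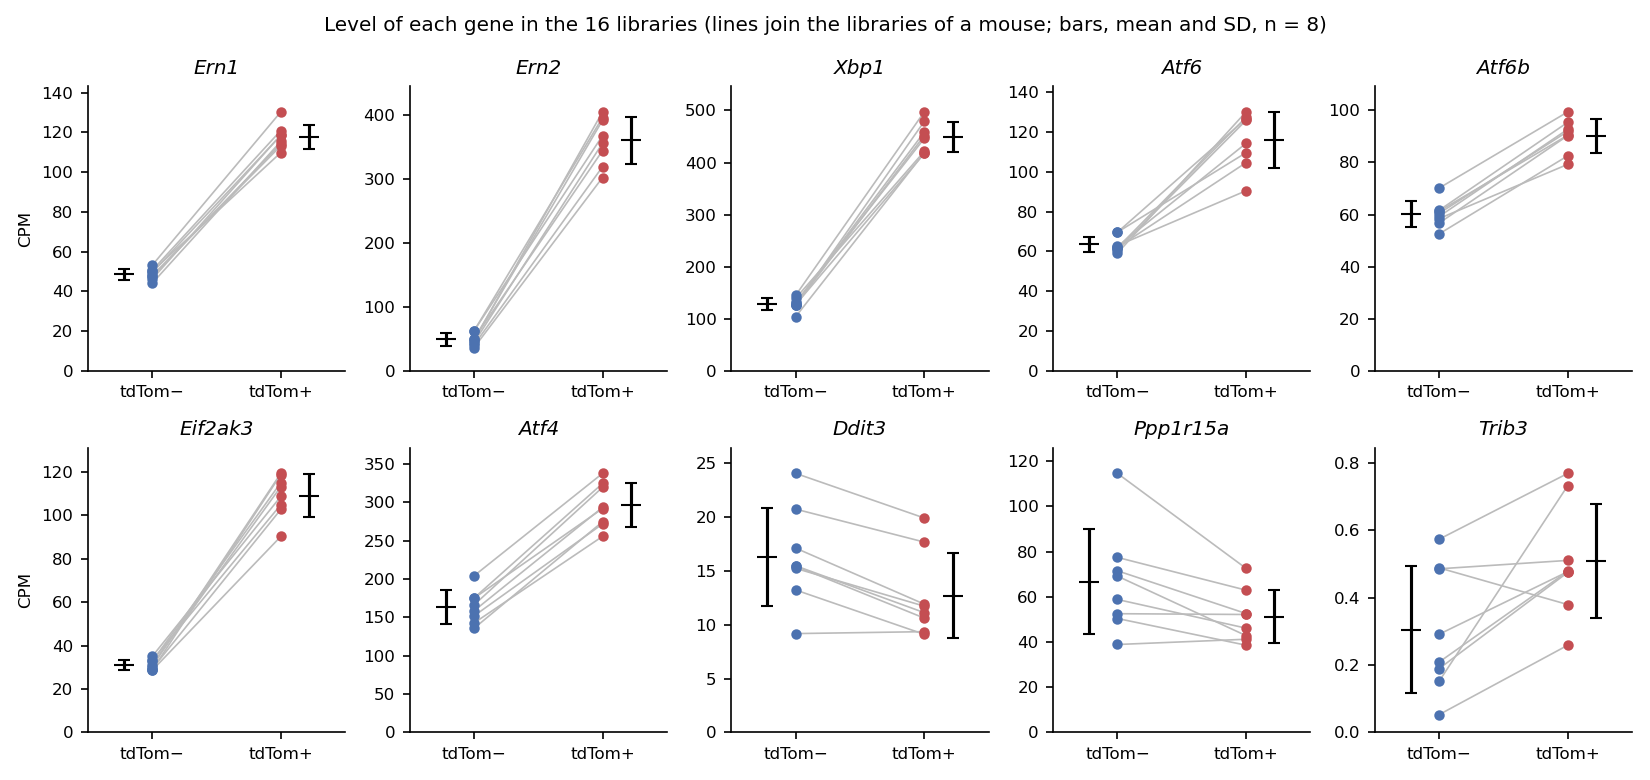
Level in CPM (vertical axes, from 0, each with its own scale) of the 10 genes in tdTom- (blue) and tdTom+ (red) libraries, where grey lines join the libraries of a mouse and black bars give the mean and SD over 8 mice. In 7 of the panels all tdTom+ points lie above all tdTom- points, while Ddit3, Ppp1r15a and Trib3 overlap.

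In the promoters, the RefSeq sequence (assembly GRCm38.p6) from 250 bases before to 50 bases after the start of a gene was searched on both strands, and 8 of the 10 members had an entry, Ern2 and Atf6 not. The motifs were the ER stress response element that ATF6 and XBP1 bind (CCAAT and CCACG separated by 9 bases of any kind), the unfolded protein response element (TGACGTGG), the element of ATF4 with its partners (TGATGCAAT or TTGCATCA) and the E-box of ATOH1 (CAGCTG). None of the 8 windows held any of them, and of all 32851 windows 0.119%, 0.676%, 0.895% and 16.3% did. A missing match says only that these letters are not in this window. The pentamer CCAAT on its own, which was added after values were seen, was in 37.4% of all windows. It was in 4 of the 8 member windows, with 6 matches for Eif2ak3, 2 for Atf4 and 1 each for Atf6b and Ddit3, and so both in genes that were higher and in one that was not. The 250 bases before the start are shown for Xbp1, Eif2ak3 and Ddit3, a sensor and an effector that were higher in tdTom+ cells and an effector that was not, 5′ to 3′ on the strand of the gene, with CCAAT or its reverse complement ATTGG in capitals.

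Xbp1 (chr11:5520391-5520640, plus strand): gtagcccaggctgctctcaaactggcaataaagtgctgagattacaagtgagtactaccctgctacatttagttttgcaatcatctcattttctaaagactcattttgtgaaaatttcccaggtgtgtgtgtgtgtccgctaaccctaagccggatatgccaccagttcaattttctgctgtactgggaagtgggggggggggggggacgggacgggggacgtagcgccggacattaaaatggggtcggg
Eif2ak3 (chr6:70844265-70844514, plus strand): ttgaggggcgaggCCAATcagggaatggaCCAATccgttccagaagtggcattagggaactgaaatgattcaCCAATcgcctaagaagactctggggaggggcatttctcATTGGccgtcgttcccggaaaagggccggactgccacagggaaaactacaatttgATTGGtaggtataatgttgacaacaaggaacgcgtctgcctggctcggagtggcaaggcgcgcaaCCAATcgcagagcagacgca
Ddit3 (chr10:127290543-127290792, plus strand): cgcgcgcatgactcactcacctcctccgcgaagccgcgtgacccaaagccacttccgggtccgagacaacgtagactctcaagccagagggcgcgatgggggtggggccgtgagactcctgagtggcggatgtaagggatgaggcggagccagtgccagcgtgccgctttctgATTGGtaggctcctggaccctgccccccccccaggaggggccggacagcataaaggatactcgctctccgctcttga

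Ern2 (ENSMUSG00000030866; GRCm38 chromosome 7, 122169893 to 122186216, minus strand), the epithelial IRE1, had the highest fold change of the members. Its level was lowest at 36.2 CPM, had a median of 48.3 and was highest at 62.5 in tdTom- libraries, against 302, 361 and 404 CPM in tdTom+ libraries. The groups were thus far apart, with the lowest tdTom+ library at several times the highest tdTom- library. This was a log2 fold change of 2.87 ± 0.11 (adjusted p = 6.45e-15, edgeR), or 7.33-fold, and 1.45% of the genes tested had a larger one. Within mice the difference on the log2 scale ran from 2.55 in mouse 7 to 3.09 in mouse 4.

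Ern1 (ENSMUSG00000020715; chromosome 11, 106394650 to 106487852, minus strand), the IRE1 of most tissues, was at 44.1 to 53.2 CPM in tdTom- libraries (median 48.7) and at 110 to 130 CPM in tdTom+ libraries (median 117). No tdTom+ library came near the tdTom- range. Its log2 fold change was 1.27 ± 0.049 (adjusted p = 9.26e-15, edgeR), or 2.42-fold. The difference varied little between mice, from 1.13 in mouse 5 to 1.39 in mouse 1.

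Xbp1 (ENSMUSG00000020484; chromosome 11, 5520659 to 5525893, plus strand), the transcription factor that IRE1 activates by splicing, was at 104 to 145 CPM in tdTom- libraries (median 129) and at 418 to 497 CPM in tdTom+ libraries (median 449). The log2 fold change was 1.80 ± 0.067 (adjusted p = 5.64e-15, edgeR), or 3.49-fold, with differences within mice from 1.59 to 2.005. The tdTom- library of mouse 4 was the lowest and stood below the other 7. Plasma and B cells also depend on XBP1. Of 10 markers of those cells, 8 had too few counts to be tested, Jchain among them. Derl3, which is also listed as an ATF6 target, was higher in tdTom+ cells of 8 of 8 mice but low (0.394 ± 0.267 CPM in tdTom- against 1.57 ± 0.997 CPM in tdTom+ cells, log2 fold change 1.99, adjusted p = 1.36e-04, edgeR), and Sdc1 was lower (-1.0). Sdc1, which epithelial cells express too, made up nearly all of their summed level of 127 to 157 CPM (tdTom+) against 259 to 297 CPM (tdTom-).

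Atf6 (ENSMUSG00000026663; chromosome 1, 170704674 to 170867771, minus strand) was at 59.2 to 69.7 CPM in tdTom- libraries (median 62.2) and at 90.5 to 130 CPM in tdTom+ libraries (median 120). Atf6b (ENSMUSG00000015461; chromosome 17, 34647146 to 34655074, plus strand), its paralog and a weaker activator, was at 52.6 to 70.2 CPM (median 59.9) and at 79.3 to 99.4 CPM (median 91.2). The populations did not overlap for either gene. The log2 fold changes were 0.87 ± 0.069 for Atf6 (adjusted p = 7.54e-10) and 0.59 ± 0.059 for Atf6b (adjusted p = 2.7e-08; both edgeR), which was the smallest of the 7. The difference in Atf6 varied more between mice, from 0.52 in mouse 2 to 1.14 in mouse 4, than that in Atf6b, from 0.44 in mouse 3 to 0.67 in mouse 8. Both exceeded the median size of change over all genes tested, which was 0.333.

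Eif2ak3 (ENSMUSG00000031668; chromosome 6, 70844515 to 70905245, plus strand), which encodes PERK, was at 28.6 to 35.03 CPM in tdTom- libraries (median 30.8) and at 90.2 to 119 CPM in tdTom+ libraries (median 111). It rose about as much as Xbp1, with a log2 fold change of 1.81 ± 0.063 (adjusted p = 2.58e-15, edgeR), or 3.50-fold, and differences within mice from 1.63 to 2.04. Atf4 (ENSMUSG00000042406; chromosome 15, 80255184 to 80257540, plus strand), the transcription factor that is translated when eIF2alpha is phosphorylated, was at 136 to 204 CPM (median 162) and at 255.6 to 338 CPM (median 293). Its log2 fold change was 0.86 ± 0.081 (adjusted p = 1.06e-08, edgeR), or 1.81-fold, and it was highest in mouse 2 in both populations.

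Ddit3 and Ppp1r15a, effectors downstream of ATF4, were not higher in tdTom+ cells. Ddit3 (ENSMUSG00000025408; chromosome 10, 127290774 to 127296288, plus strand), which encodes the transcription factor CHOP, was at 9.17 to 24.04 CPM in tdTom- libraries (median 15.5) and at 9.11 to 19.9 CPM in tdTom+ libraries (median 11.4). Ppp1r15a (ENSMUSG00000040435; chromosome 7, 45522916 to 45526268, minus strand), which encodes GADD34, the inducible subunit of the phosphatase that acts on eIF2alpha, was at 38.9 to 115 CPM (median 64.0) and at 38.6 to 72.6 CPM (median 49.2). The populations overlapped almost fully in both genes. In tdTom- cells both were lowest in mouse 4 and highest in mouse 2, and mouse 2 was also the highest in tdTom+ cells.

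For Ddit3 the log2 fold change was -0.36 ± 0.18 (adjusted p = 0.098, edgeR without the mouse), and with the mouse as a block it was -0.36 ± 0.073 (adjusted p = 3.14e-04, edgeR). For Ppp1r15a it was -0.38 ± 0.18 (adjusted p = 0.0672, edgeR) and with the block -0.34 ± 0.075 (adjusted p = 5.88e-04, edgeR). Each gene was lower in tdTom+ cells of 7 of 8 mice. Mouse 4 was the exception in both, with differences of 0.028 and 0.083 on the log2 scale, and in mouse 6 the Ppp1r15a levels of 52.5 CPM (tdTom-) against 52.2 CPM (tdTom+) were close. Both calls therefore rest on the comparison within mice.

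**Figure D2:**
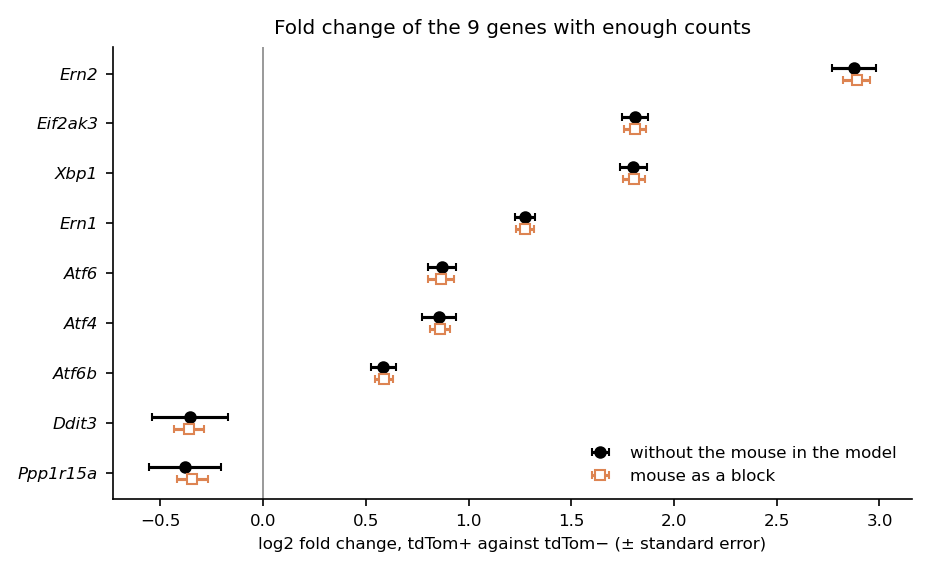
Log2 fold change of tdTom+ against tdTom- cells (horizontal axis) for the 9 members tested, with standard errors, from the edgeR model without the mouse (black circles) and with the mouse as a block (orange squares). The estimates of each gene lie close together, and the block shortens the error bars most for Ddit3 and Ppp1r15a, which are the only members left of 0.

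Levels of Ddit3 and Ppp1r15a were set beside those of immediate early and heat shock genes, which cell isolation can raise. The summed level of 14 such genes was 3395 to 8038 CPM in tdTom- libraries and 3033 to 7098 CPM in tdTom+ libraries, highest in mouse 2 and lowest in mouse 4 in both populations. Of the 14, 1 was higher in tdTom+ cells (Nr4a1, log2 fold change 1.36) and 2 were lower (Ier3 and Zfp36) without the mouse in the model, and 10 were lower with the block. The sum was lower in tdTom+ cells of all 8 mice, and Ddit3 and Ppp1r15a in all but mouse 4. The part of these genes in the levels of Ddit3 and Ppp1r15a was not tested. Atf3, among the 14, is also on the list of ATF4 and CHOP targets described below, so the sum is not separate from that pathway.

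**Figure D3:**
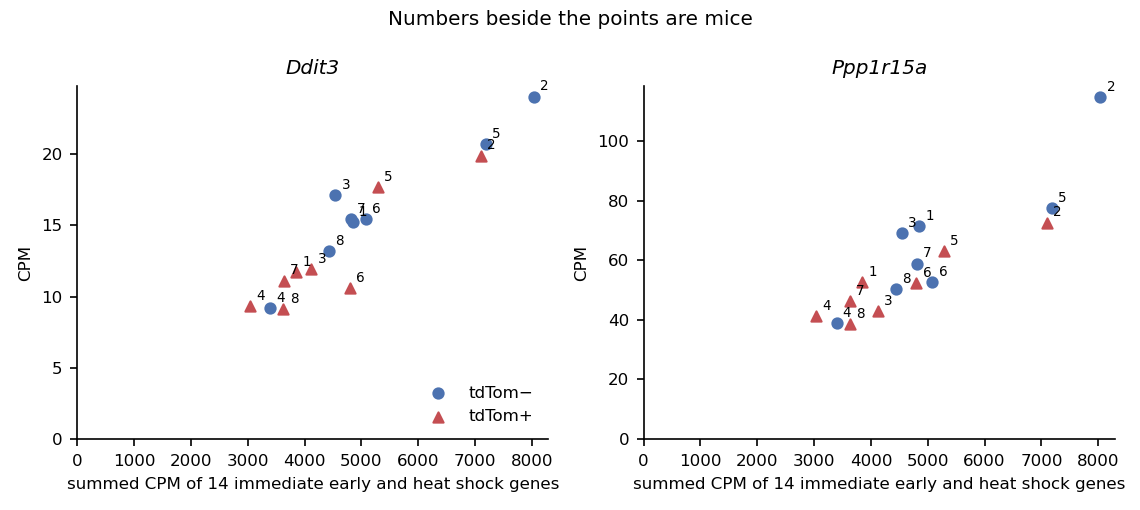
Level of Ddit3 and Ppp1r15a in CPM (vertical axes) against the summed CPM of 14 immediate early and heat shock genes (horizontal axes) in tdTom- (circles) and tdTom+ (triangles) libraries, labelled by mouse. In each population the library of mouse 2 lies farthest to the upper right and that of mouse 4 farthest to the left.

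Across the mice, Ddit3 and Ppp1r15a varied together. Over 8 tdTom- libraries Pearson's r of log2 CPM was 0.935 (exact permutation p = 0.00151, adjusted p = 0.0116) and Spearman's rho 0.857 (exact permutation p = 0.0107, adjusted p = 0.0924). Over 8 tdTom+ libraries r was 0.922 (exact permutation p = 0.00193, adjusted p = 0.0116) and rho 0.833 (exact permutation p = 0.0154, adjusted p = 0.0924). Leaving out the mice farthest from the median of Ddit3 gave an r of 0.795 without mice 2 and 4 in tdTom- cells and 0.634 without mice 2 and 5 in tdTom+ cells. Thus part of the relation rested on these mice, and the rank correlations did not pass the correction for 12 relations.

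Of the other 10 relations among Atf4, Ddit3, Ppp1r15a and Trib3, that of Atf4 and Ppp1r15a in tdTom+ cells passed for Pearson's r, at 0.834 (exact permutation p = 0.0109, adjusted p = 0.0436), while its rho of 0.762 did not (exact permutation p = 0.0368, adjusted p = 0.147). Without mice 2 and 4, r was 0.711. No relation with Trib3 had an adjusted p under 0.05. The mice fall into number series of 3, 1 and 4 animals in the labels, which is too few for a correlation within a series.

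Trib3 (ENSMUSG00000032715; chromosome 2, 152337422 to 152344032, minus strand), a pseudokinase induced by ATF4 and CHOP, was near the limit of detection and was not tested. Its counts were 1 to 15 per tdTom- library (57 in all) and 4 to 15 per tdTom+ library (79 in all). This was 0.305 ± 0.188 and 0.510 ± 0.169 CPM (mean ± SD, n = 8 each), with overlapping ranges and the higher value in tdTom+ cells of 7 of 8 mice.

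Scaled by the exon length that the count tables give, the members could also be ordered by level, in RPKM (CPM per kilobase). In tdTom- cells Atf4 led at 94.9 RPKM, above all others, followed by Xbp1 at 39.7, Ppp1r15a at 22.7, Atf6b at 21.8, Ern2 at 16.5, Ddit3 at 9.51, Atf6 at 6.89, Ern1 at 5.95, Eif2ak3 at 5.17 and Trib3 at 0.144 RPKM. From Xbp1 to Eif2ak3 each gene overlapped in range with the next, so these neighbours were not separated by the spread between mice. In tdTom+ cells the order was Atf4 at 172, Xbp1 at 138, Ern2 at 121, Atf6b at 32.7, Eif2ak3 at 18.1, Ppp1r15a at 17.4, Ern1 at 14.4, Atf6 at 12.6, Ddit3 at 7.398 and Trib3 at 0.240 RPKM. Atf4, Xbp1 and Ern2 formed a chain of overlapping ranges there, and a gap in which no libraries overlapped lay between Ern2 and Atf6b. Ern2 thus moved from the fifth place, within the range of its neighbours, to the third.

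The paralogs did not change in proportion. A ratio within a library does not depend on the scaling between libraries, and the differences between the populations of a mouse were tested with an exact sign-flip permutation over all sign patterns of the 8 mice, for which the smallest p is 0.00781. Ern2 stood at 2.70 times Ern1 in tdTom- and 8.32 times in tdTom+ cells (geometric means of RPKM ratios), a log2 difference of 1.62 ± 0.175 (SD, n = 8) that was positive in 8 of 8 mice (exact permutation p = 0.00781, adjusted p = 0.0234 over 3 pairs). The ratios of single mice ran from 2.08 to 3.38 and from 7.20 to 9.83. The size of a ratio rests on the annotated exon lengths, here 2973 (Ern2) and 8173 bases (Ern1). Unscaled, the tdTom- means were 49.0 and 48.6 CPM. The change between the populations hardly depends on these lengths. Atf6 against Atf6b moved from 0.319 to 0.384, a difference of 0.27 ± 0.23 (SD, n = 8) that was positive in 7 of 8 mice (exact permutation p = 0.0234, adjusted p = 0.0234), with mouse 2 the exception.

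Ppp1r15a was also set against Ppp1r15b, which encodes the constitutive counterpart of GADD34. Ppp1r15b itself did not pass the test, at 198 ± 28.1 CPM (tdTom-) against 196 ± 17.5 CPM (tdTom+; log2 fold change -0.014, adjusted p = 0.89, edgeR). The ratio moved from 0.618 to 0.490, a log2 difference of -0.34 ± 0.25 (SD, n = 8) that was negative in 7 of 8 mice (exact permutation p = 0.0156, adjusted p = 0.0234). When the labels were permuted over the 16 libraries without regard to the mouse, the exact p for this ratio was 0.083.

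**Figure D4:**
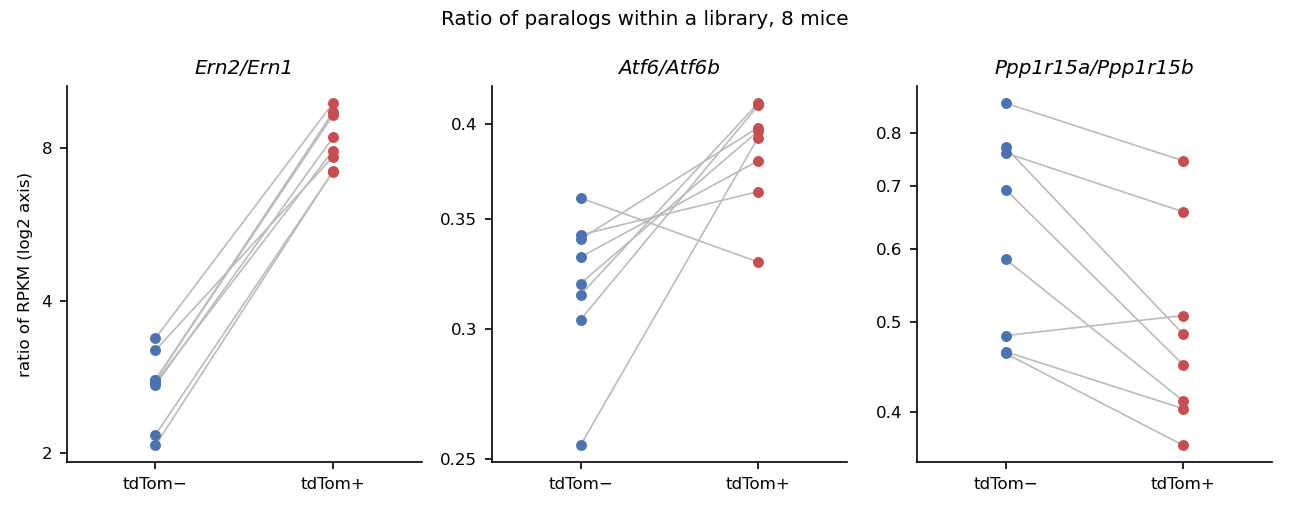
Ratio of RPKM within a library (vertical axes, log2 scale) for Ern2/Ern1, Atf6/Atf6b and Ppp1r15a/Ppp1r15b in tdTom- (blue) and tdTom+ (red) libraries, with grey lines joining the libraries of a mouse. The Ern2/Ern1 ratios of all 8 tdTom+ libraries exceed those of all tdTom- libraries, while the ranges of the other pairs overlap.

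Targets of the pathways were then described from 6 lists, of which 8 genes are in more than 1. The counts of each list stand beside the 25.5% of all genes that were higher and the 25.5% that were lower. All 27 genes listed as XBP1 targets were tested, and 27 were higher in tdTom+ cells, with a median log2 fold change of 1.28. The largest changes were those of Bhlha15 (4.18 ± 0.26), a transcription factor of secretory cells, Sec24d (2.22 ± 0.10), a coat protein of vesicles that leave the ER, and Herpud1 (1.89 ± 0.075), a component of ER-associated degradation. The smallest were those of Derl1 (0.42 ± 0.050), Sec63 (0.48 ± 0.057) and Derl2 (0.53 ± 0.071), all with an adjusted p under 0.01 (edgeR). Dnajb9, a much used reporter of spliced Xbp1, had levels of 31.4 ± 10.2 CPM (tdTom-) against 49.6 ± 7.07 CPM (tdTom+; log2 fold change 0.66, adjusted p = 9.02e-04, edgeR), higher in 7 of 8 mice, and was picked after its values were seen.

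Of 15 genes listed as ATF6 targets, 14 were higher and 0 lower, with a median of 1.32. Xbp1 is on this list itself, and 6 others are also listed under XBP1. The largest changes were those of Derl3 (1.99 ± 0.38), which is low at 1.57 ± 0.997 CPM in tdTom+ cells, Herpud1 and Xbp1, and the smallest among those called were those of Sel1l (0.36 ± 0.077), Hsp90b1 (0.76 ± 0.091) and Pdia4 (1.03 ± 0.092). Canx, which encodes the chaperone calnexin, did not pass the test (0.16 ± 0.058, adjusted p = 0.0244, edgeR). It was still higher in tdTom+ cells of 8 of 8 mice, and by DESeq2 all 15 genes of this list were higher.

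The ER stress response element was in none of the 8 member windows searched. It was in the windows of 9 of the 88 other pathway genes with an entry, against 0.119% of all windows. The lists name targets of factors that bind this element, so its presence there is no test, and 8 member windows are too few for a contrast. Of the 9, all but Canx were higher in tdTom+ cells at an adjusted p under 0.01 (edgeR), and Canx rose by less. All 9 are on the XBP1 or ATF6 list, where 27 of 27 and 14 of 15 genes were higher, with or without the element. The calls therefore do not set genes with the element apart from the rest of these lists. Of the elements that match 7 are shown, to set the sequence of Canx beside those of genes that passed. Not shown are those of Hsp90b1 (log2 fold change 0.76) and Creld2 (1.24), which passed too. They run 5′ to 3′ on the strand of the element, with the 5 bases at either end that the search required in capitals. Coordinates are those of GRCm38.p6.

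Hspa5 (chr2:34772025-34772043), log2 fold change 1.40: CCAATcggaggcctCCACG
Pdia6 (chr12:17266491-17266509), log2 fold change 1.77: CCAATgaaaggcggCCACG
Dnajc3 (chr14:118937827-118937845), log2 fold change 1.27: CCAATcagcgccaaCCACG
Calr (chr8:84847075-84847093), log2 fold change 1.09: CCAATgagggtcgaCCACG
Syvn1 (chr19:6046532-6046550), log2 fold change 0.98: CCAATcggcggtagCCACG
Derl3 (chr10:75893242-75893260), log2 fold change 1.99: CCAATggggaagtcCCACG
Canx (chr11:50325800-50325818), log2 fold change 0.16: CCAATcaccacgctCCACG

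The element was thus present before Canx, which did not pass at an adjusted p under 0.01, as it was before genes that did. The element of Hspa5, which encodes the main chaperone of the ER lumen, BiP, ran from base -65 to base -47 relative to the gene start, and Hspa5 itself went from 493 ± 68.5 CPM (tdTom-) to 1299 ± 215 CPM (tdTom+).

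Partners of IRE1 went both ways. Of 16 genes 15 were tested, 7 were higher and 2 lower, with a median of 0.14. The higher ones included the folding genes Agr2 (4.20 ± 0.18), a disulfide isomerase needed for MUC2 that is also among the goblet markers, Pdia6 (1.77 ± 0.084) and Hspa5 (1.40 ± 0.11). The lower ones were Bcl2l11 (-1.04 ± 0.095) and Bak1 (-0.68 ± 0.073). The smallest changes called higher were those of Mapk9 (0.41 ± 0.045), Map3k5 (0.75 ± 0.069) and Syvn1 (0.98 ± 0.064). Rtcb, which encodes the ligase that joins the Xbp1 exons, had a log2 fold change of 0.14 ± 0.047 (adjusted p = 0.0156, edgeR). With the mouse as a block it was higher (adjusted p = 0.00738, edgeR).

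Proteases and relatives of ATF6 made up a list of 7, of which 5 were higher and 1 lower, with a median of 0.73. Creb3l4 (3.996 ± 0.12) and Creb3l1 (2.09 ± 0.098), membrane-bound transcription factors that are cleaved as ATF6 is, rose most, to 179 ± 12.9 and 822 ± 97.9 CPM in tdTom+ cells. Creb3l2 (0.87 ± 0.13) and Creb3 (0.73 ± 0.048) were also higher, while Creb3l3 fell from 11.2 ± 5.41 CPM in tdTom- to 0.266 ± 0.102 CPM in tdTom+ cells (log2 fold change -5.38 ± 0.32, adjusted p = 8.78e-12, edgeR). Of the proteases that cleave ATF6, Mbtps1 was slightly higher (0.21 ± 0.059, adjusted p = 0.00386, edgeR) and Mbtps2 did not pass the test (0.053 ± 0.081, adjusted p = 0.591, edgeR).

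On the PERK side, of 16 genes of the eIF2 machinery 5 were higher and 2 lower, with a median of 0.032, and a share of higher genes near the 25.5% of all genes. Dnajc3 (1.27 ± 0.085), an inhibitor of PERK and chaperone that is also on the XBP1 and ATF6 lists, Eif2ak4 (0.78 ± 0.062), which encodes the kinase GCN2, and Eif2b2 (0.50 ± 0.056), a subunit of the exchange factor eIF2B, rose most, and Nck1 (0.39 ± 0.094) and Eif2b1 (0.47 ± 0.047) least. Eif2s2 (-0.64 ± 0.096), a subunit of eIF2, and Ppp1cc (-0.36 ± 0.053), a phosphatase subunit, were lower. Neither Eif2ak1 (-0.059, adjusted p = 0.354, edgeR) nor Eif2ak2 (-0.021, adjusted p = 0.833, edgeR), the other eIF2alpha kinases, passed the test.

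The list of ATF4 and CHOP targets was divided. Of 37 genes 35 were tested, 15 were higher and 6 lower, with a median of 0.10. With the mouse as a block 15 were higher and 10 lower, a share of lower genes close to the 28.9% of all genes under the block. The list holds Ddit3 and Ppp1r15a themselves. The largest rises were those of Pycr1 (3.51 ± 0.14), an enzyme of proline synthesis, Nupr1 (3.48 ± 0.14), a stress-induced regulator of transcription, and Stc2 (1.98 ± 0.0995), a secreted glycoprotein. Slc3a2 (0.28 ± 0.050), Slc7a1 (0.44 ± 0.086) and Eif4ebp1 (0.52 ± 0.079) had the smallest ones.

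The lower genes were led by Cth (-1.16 ± 0.057), an enzyme of cysteine synthesis, Gdf15 (-1.15 ± 0.14), a secreted stress cytokine, and Tnfrsf10b (-0.96 ± 0.083), a death receptor that CHOP induces. Cebpg (-0.35 ± 0.048), Shmt2 (-0.40 ± 0.095) and Gadd45a (-0.56 ± 0.096) had the smallest falls. Chac1, an early target of the PERK branch, was higher but low, at 0.708 ± 0.599 CPM (tdTom-) against 2.20 ± 0.502 CPM (tdTom+; 1.67 ± 0.35, adjusted p = 2.94e-04, edgeR), and was picked after its values were seen.

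**Figure D5:**
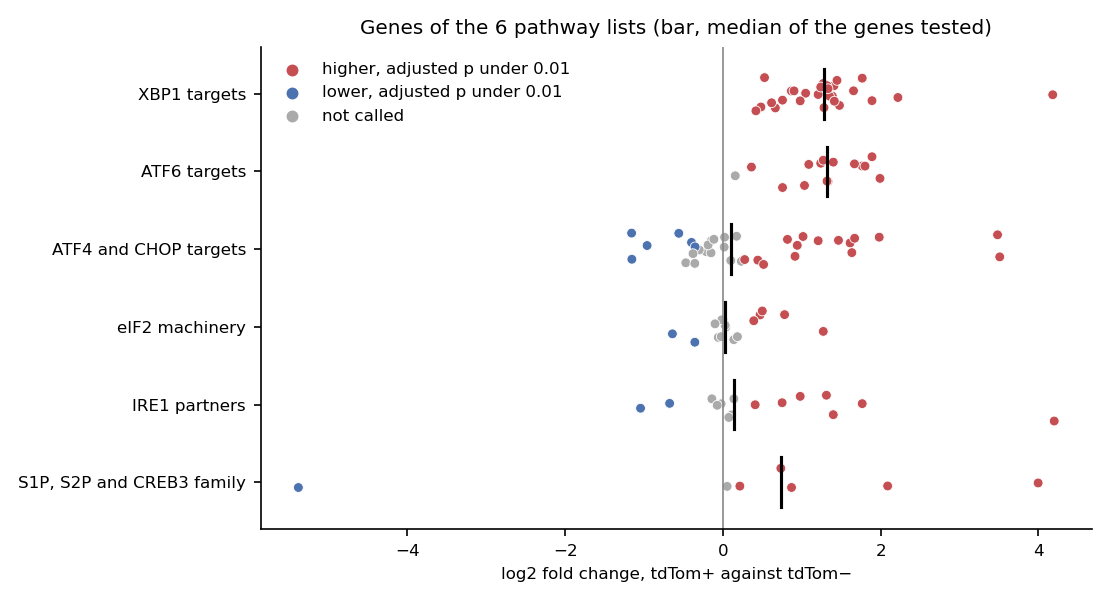
Log2 fold change of tdTom+ against tdTom- cells (horizontal axis) for the genes tested in 6 pathway lists (rows), coloured by the call at an adjusted p under 0.01, with a black bar at the median of each list and points spread vertically only for legibility. The XBP1 and ATF6 targets lie right of 0 with medians of 1.28 and 1.32, while the ATF4 and CHOP targets, the eIF2 machinery and the IRE1 partners spread to both sides.

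Genes that varied most like a member between libraries, once the means of both populations were removed, were sought among 10490 genes over the 16 libraries, which share mice, sort and depth. For Ern2 they were Rbm14 (r = 0.904), Gmppa (0.858) and Sec31a (0.853), of which Gmppa and Sec31a were higher in tdTom+ cells and Rbm14 did not pass the test (log2 fold change -0.19, adjusted p = 0.0103, edgeR). For Xbp1 they were Fcna (0.839), Col8a1 (0.838) and Hgfac (0.831), all 3 higher in tdTom+ cells. For Ddit3 they were Dnajb1 (0.941), a cochaperone of the heat shock response, Pnrc1 (0.937) and Maff (0.936). Of these, Pnrc1 (-0.47) and Maff (-1.10) were lower in tdTom+ cells. All these r were picked as the highest among many genes, which raises them by selection alone, and none was tested.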

How the data were processed

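The authors prepared stranded mRNA libraries from sorted cells, aligned single-end reads to GRCm38.p3 with TopHat2 2.1.1 and deposited counts per gene from featureCounts (exons, reverse strand, primary alignments; 1.5.0-p1 per the file headers, Subread 1.5.2 per the labels). These counts are not normalized. Symbols came from GENCODE M21 for 44585 of the 45513 IDs. Counts were compared between 8 tdTom+ and 8 tdTom- libraries with edgeR 4.0.16 (R 4.3.3) after its filterByExpr and TMM steps (glmQLFit, glmQLFTest, no mouse term, adjusted p under 0.01). CPM and RPKM were computed with TMM library sizes, except for the lowest level that can be read, which used total counts. Fold changes are given with standard errors derived from the F statistic.

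Titles give the mouse of each library. Deviations from the group means were correlated between the libraries of each mouse (0.223 to 0.408 over genes), so the mouse is a block in an alternative. It is printed where it changes the call of a member. The block also changed calls within lists. Among them, 8 IRE1 partners and 6 eIF2 genes were then higher, and 7 tuft and 9 proliferation genes lower. No libraries were duplicates. The fits were tested on simulated counts. Log2 CPM used a prior count of 2 and ratios a pseudocount of 0.1 RPKM. Alternatives were DESeq2 1.42.0, limma-voom (limma 3.58.1), RLE, upper-quartile and total-count scaling, no filter, at least 10 counts in every library, thinning to the smallest library, subsets of mice, each mouse left out and an adjusted p under 0.05.

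The members, lists and motifs were chosen with earlier results of these data known. Named genes are the members, the 3 largest and 3 smallest changes called in each direction per pathway list, Ppp1r15b, Atoh1, Muc2 and the 3 genes most like Ern2, Xbp1 and Ddit3, and other names were chosen after values were seen. No set test was run. Promoter sequences are from RefSeq.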

Additional observations from a re-analysis of the deposited data

Results flagged for a closer look

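The log2 CPM of Xbp1 in the tdTom- library of mouse 4 was 6.705, against 6.982 to 7.184 in the other 7 tdTom- libraries, a gap wider than Dixon's 95% critical value allows. Of 26 groups of libraries checked in this way 1 was set apart, where 1.3 would be by chance. This library was also the most deeply sequenced.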

How the results depend on the processing

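Of 253 values recomputed for results that answer a comparison, 246 did not change in direction or in their call. With the replicate block, the members lower in tdTom+ cells went from 0 to 2, with log2 fold changes of -0.3613 for Ddit3 (adjusted p = 3.14e-04, edgeR) and -0.3441 for Ppp1r15a (adjusted p = 5.88e-04, edgeR). Without the replicate block, with labels permuted over 16 libraries, the Ppp1r15a/Ppp1r15b difference of -0.3351 had an exact p of 0.083. With mice 5 to 8 only, the ratio differences were 1.522 for Ern2/Ern1 (exact p = 0.125), 0.2245 for Atf6/Atf6b (exact p = 0.125) and -0.2437 for Ppp1r15a/Ppp1r15b (exact p = 0.25), and 4 mice allow no exact p under 0.125. The block changed no other member's call. The members higher numbered 7 under every alternative, with log2 fold changes from 2.742 to 3.015 for Ern2, 1.224 to 1.305 for Ern1, 1.741 to 1.837 for Xbp1, 1.742 to 1.85 for Eif2ak3, 0.7909 to 0.9197 for Atf6, 0.8106 to 0.887 for Atf4 and 0.5323 to 0.6271 for Atf6b. The XBP1 targets higher were 26 or 27 and the ATF6 targets 12 to 15. Of the lists, the ATF4 and CHOP targets lower rose from 6 to 10 with the block, the eIF2 genes lower fell from 2 to 1 with mice 1 to 3 only, and Creb3l3 was removed by a minimum of 10 counts in every library. For Ppp1r15a the log2 fold change was -0.5987 with mice 1 to 3 and -0.2585 with mice 5 to 8. Trib3 was limited by depth. The p-values without the mouse treat the 16 libraries as independent, although both populations came from each mouse. Those with the block or from sign flips rest on differences within mice, and all come from these 8 mice.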
